A study of Mus musculus with 77 samples.

Results

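RNA pulled down from visceral fat (VsWAT in the labels) was sequenced as 6 small RNA libraries, 3 from mice on a high-fat diet (HFD) and 3 from mice on a low-fat diet (LFD), out of 77 libraries in the whole series. They were chosen by their titles as every VsWAT small RNA pull-down library of these diets, and all features counted in them were examined. All mice were males aged 12 weeks that had eaten their diet for 2 weeks. All carried the same 3 alleles on an FVB.129P2 background: the targeted allele Cyp3a13tm1Ahs, the deletion Del(5Cyp3a57-Cyp3a59)1Ahs and the transgene Tg(APOE-CYP3A4)A1Ahs. The last of these expresses human CYP3A4 with APOE sequences, which are used to drive genes in the liver, and both diet groups thus share it and both Cyp3a changes. The sources used here name neither the tag on the captured RNA nor how it was captured, and do not say whether each library came from its own mouse, so p-values measure the spread between these samples. The comparison asks which captured RNAs differed between HFD and LFD. Input libraries of the same tissue (3 HFD and 3 LFD) and small RNA pull-downs of GAS (3 and 3) and liver (3 and 2), with GAS as the labels write it, serve for the tests of where the diet difference itself differs.

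White fat stores energy as triglyceride. Part of its fatty acid is taken from blood, and part is built from glucose: ATP citrate lyase makes acetyl-CoA in the cytosol, acetyl-CoA carboxylase turns it into malonyl-CoA, and fatty acid synthase joins these units into palmitate with NADPH as the reductant. The genes of this route are known to be raised by carbohydrate feeding and insulin and lowered by dietary fat.

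The pull-down libraries held 2392720, 1867345 and 2091102 assigned counts on HFD and 1951695, 2382392 and 2580104 on LFD. Levels are CPM, counts scaled to a common library total, after TMM scaling, which aligns libraries on the features that change least, unless stated. Because the reads are assigned to whole genes, a value for a protein-coding gene is its level in reads of a small RNA library and not a small RNA of its own. All 8 adipocyte markers (Adipoq, Plin1, Lep and others) were counted, with a summed level of 21560 to 24870 CPM of all assigned counts on HFD and 21220 to 29510 CPM on LFD. All 4 markers of the epididymis, the organ beside the male's main visceral fat depot, were at 0 in the 6 libraries.

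Several libraries stood apart from the others of their diet. The 6 hepatocyte markers together reached 1174, 1412 and 41.1 CPM of all assigned counts in HFD 1, 2 and 3, and 797, 119 and 122 CPM in LFD 1, 2 and 3. Alb, the gene of serum albumin made by hepatocytes, was at 988, 1051 and 34.9 CPM on HFD and at 660, 86.7 and 118 CPM on LFD. HFD 1, HFD 2 and LFD 1 were thus high and the other 3 low, across diets, and the inputs with the same numbers were high as well, with Alb at 642, 894 and 108 CPM of all assigned counts in HFD inputs and at 1063, 143 and 262 CPM in LFD inputs. Mir122, the precursor of the main liver microRNA, followed the same split, with 97, 43 and 9 counts on HFD and 76, 12 and 18 on LFD. Cyp3a13, whose allele is targeted in the strain, had 38, 10 and 0 counts on HFD and 12, 1 and 0 on LFD, while Cyp3a25 and Cyp3a41a had 0 in each of the 6 libraries. The genes that name the deletion were not at 0 everywhere: Cyp3a57 had 10, 0 and 0 counts on HFD and 7, 0 and 0 on LFD, and Cyp3a59 had 5, 2 and 0 on HFD and 7, 0 and 0 on LFD. Cyp3a11 had 2, 7 and 0 counts on HFD and 2, 0 and 1 on LFD, and since some Cyp3a genes are close copies of each other, which of them gave these few reads is uncertain. Of 22 hepatocyte genes tested for diet, 20 had a positive fold change and the median was 1.33, but 0 were free of overlap between diets. Over all features, 6.09% were higher and 6.52% lower on HFD without overlap.

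A different split was seen for Ucp1, the uncoupling protein of brown fat, named here after its values were seen. Its level was 50.2, 0.513 and 50.7 CPM on HFD, and 1.03, 0 and 38.5 CPM on LFD. HFD 1, HFD 3 and LFD 3 were high, and the diets overlapped (log2 fold change 1.37 ± 1.94, SE, n = 3 each, edgeR adjusted p = 0.952). Of the 9 thermogenic fat genes tested for diet, 8 had a negative fold change and the median was -0.44, so Ucp1 does not stand for that list. The library HFD 3 stood apart in stress genes: Hspa1b, an inducible HSP70 chaperone also named after its values were seen, was at 11.9, 66.2 and 492 CPM on HFD and at 10.8, 4.65 and 5.04 CPM on LFD.

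**Figure D1:**
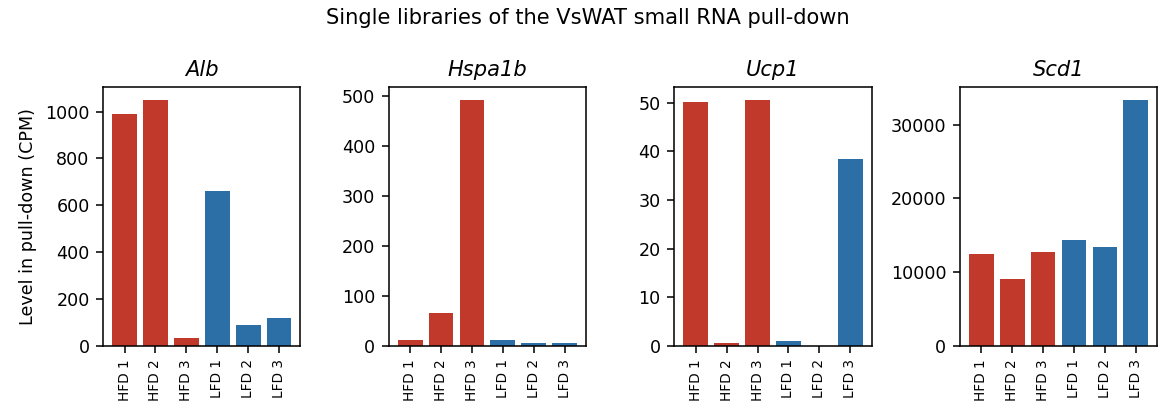
Level (CPM, linear axes that start at 0) of Alb, Hspa1b, Ucp1 and Scd1 in each VsWAT pull-down library, HFD in red left of LFD in blue. Alb is high in HFD 1, HFD 2 and LFD 1, Hspa1b in HFD 3, Ucp1 in HFD 1, HFD 3 and LFD 3, and Scd1 in LFD 3.

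The clearest diet difference in captured visceral fat RNA was a lower level of the fatty acid synthesis route on HFD. Of 10712 features tested, 11 passed an edgeR adjusted p under 0.05 (0.103%), 9 of them lower on HFD (0.084%) and 2 higher (0.0187%), while 741 had an unadjusted p under 0.05 (6.92%). Of the 9 that fell, 5 make or regulate fatty acids: Acly, Acaca, Fasn, Me1 and Thrsp. The other 4 were Gbe1, Rdh12, Enpep and Uhrf1bp1, and the 2 that rose were Peg3 and Slc5a7. The count of 11 became 0 without HFD 1, 0 without HFD 2, 5 without HFD 3 and 6 without LFD 3, while DESeq2 called 83. With HFD 1, HFD 2 and LFD 1 left out for their Alb, 6 features passed, all higher and none of the 11, in a fit where the lone HFD library is assumed to vary like the others. In these same 3 libraries alone, 70 passed, 10 of the 11 among them, again with a lone library in 1 arm, here LFD, whose spread is assumed. All 11 kept their direction and an unadjusted p under 0.05 in each run that left out 1 library and with DESeq2. They kept their direction in both runs with a lone library as well, where the p-values rest on the spread of the other arm and are not read as support.

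**Figure D2:**
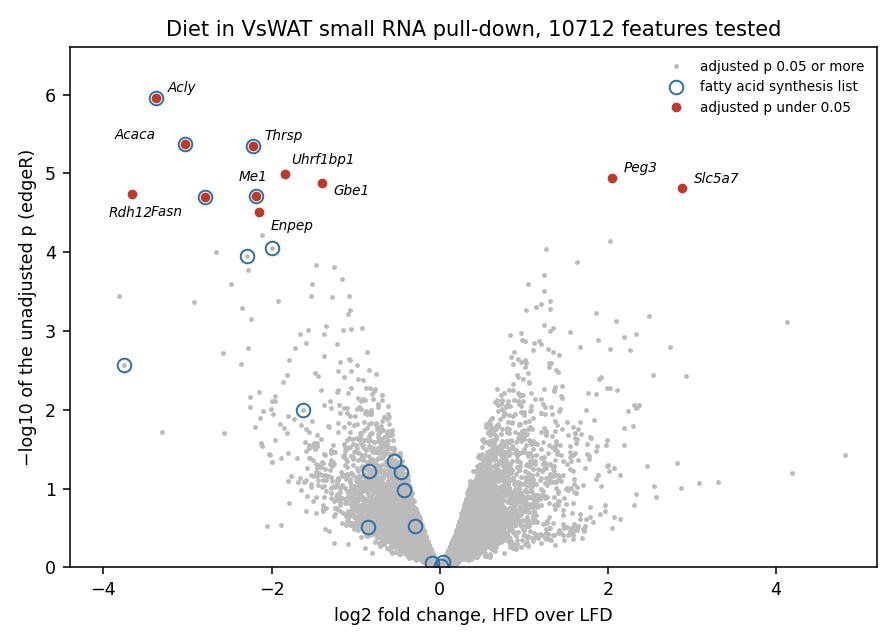
Each point is 1 of 10712 features, with the log2 fold change (HFD over LFD) against −log10 of the unadjusted edgeR p. The 11 features past the adjusted threshold are in red and labelled, 9 left of 0 and 2 right of it, and members of the fatty acid synthesis list are circled.

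Acly, ATP citrate lyase (chr11:100476352-100528000, GRCm38.p6), was at 63.9, 109 and 96.4 CPM in HFD pull-downs and at 672, 653 and 1458 CPM in LFD pull-downs. Every HFD library lay below every LFD library, and Acly fell 10.4-fold (log2 fold change -3.37 ± 0.37, SE, n = 3 each, edgeR adjusted p = 0.0119). Acaca, the carboxylase that commits acetyl-CoA to fatty acids (chr11:84129635-84401651), was at 52.5, 50.8 and 76.5 CPM on HFD, against 339, 343 and 786 CPM on LFD. Its HFD libraries were again all lower (-3.03 ± 0.36, adjusted p = 0.016), and it is listed as overlapping Tada2a and 2 predicted genes, whose reads cannot be told apart from its own where strand was not used in counting. Fasn, fatty acid synthase (chr11:120805958-120825166), had the highest level of the 11 features, with 411, 696 and 945 CPM on HFD and 2811, 4393 and 6987 CPM on LFD. It fell 6.92-fold (-2.79 ± 0.41, adjusted p = 0.0211), with LFD 3 the highest library in this gene as in Acly and Acaca.

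Me1, malic enzyme, a cytosolic source of NADPH, was at 96.8, 105 and 62.9 CPM on HFD and at 342, 269 and 592 CPM on LFD (-2.18 ± 0.32, adjusted p = 0.0211). Thrsp, the nuclear protein Spot 14 known to rise with lipogenesis, was at 246, 199 and 280 CPM on HFD and at 864, 993 and 1529 CPM on LFD (-2.22 ± 0.29, adjusted p = 0.016). Neither gene overlapped between diets. Within the 3 libraries rich in Alb the fold changes of these 5 genes were -2.97 for Acly, -2.72 for Acaca, -2.36 for Fasn, -1.77 for Me1 and -1.97 for Thrsp, and in the 3 poor in Alb they were -3.47, -2.91, -2.61, -2.80 and -2.19 in the same order. In bulk tissue, fewer cells of a type and less RNA per cell cannot be told apart.

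Of the 19 genes on the fatty acid synthesis list, 18 were tested, and 5 passed as lower and 0 as higher. Their median log2 fold change was -1.23, against 0.00642 over all features, and 11 of the 18 had every HFD library below every LFD library, a pattern that 6.52% of all features showed in this direction and 6.09% in the other. Elovl6, an elongase of palmitate, had a larger fold change than any of the 5 without passing, with 21.5, 29.8 and 30.3 CPM on HFD and 171, 160 and 769 CPM on LFD (-3.75 ± 0.75, adjusted p = 0.298). Its LFD libraries differed among themselves, with LFD 3 far above LFD 1 and LFD 2. Scd2, a desaturase (-1.996 ± 0.34, adjusted p = 0.0657), and Acss2, which makes acetyl-CoA from acetate (-2.30 ± 0.38, adjusted p = 0.0706), lay just outside the threshold. Elovl6, Scd2, Acss2, Srebf1, Mlxipl and G6pdx were chosen after their values were seen. Scd1, the main desaturase of fat, was at 12410, 9094 and 12700 CPM on HFD, against 14320, 13440 and 33390 CPM on LFD. The diets did not overlap in Scd1, LFD 3 alone was high, and the gene did not pass (-0.84 ± 0.41, adjusted p = 0.75). The transcription factor genes of the route had small differences, -0.46 ± 0.22 for Srebf1 and -0.42 ± 0.24 for Mlxipl, neither past the test (adjusted p = 0.757 and 0.824), and G6pdx, which opens the pentose phosphate route, was at 0.04 ± 0.20.

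**Figure D3:**
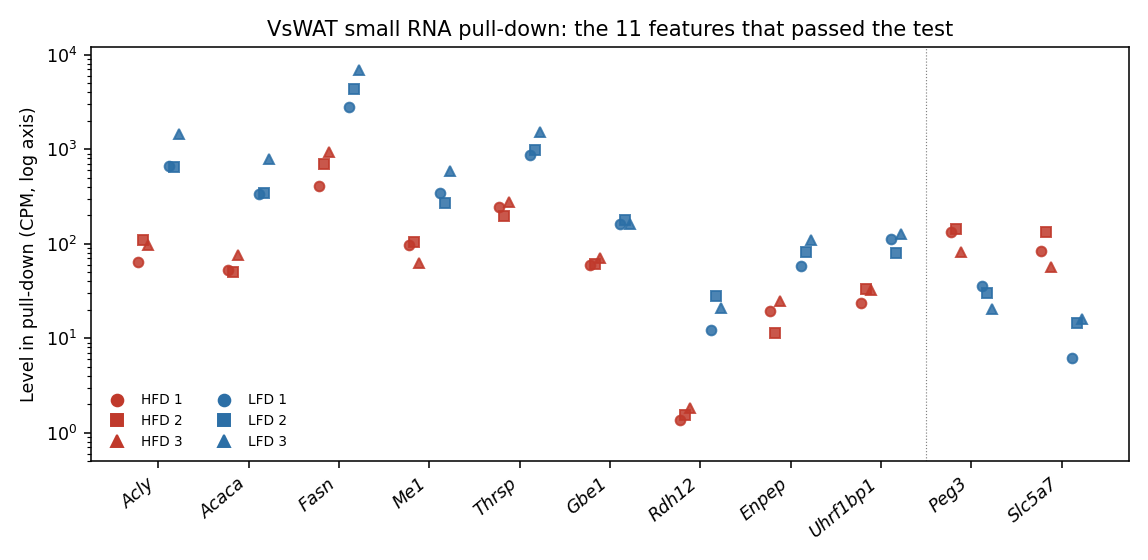
Level (CPM, log axis) in each of the 3 HFD (red, left) and 3 LFD (blue, right) pull-down libraries for the 11 features that passed the test, with marker shapes for libraries 1, 2 and 3. The 9 features left of the dotted line are lower on HFD and the 2 right of it higher, with no overlap between diets in any of the 11.

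The stretches before the start sites of Acly, Fasn and Thrsp are shown, which are 3 of the 5 genes of 1 route that fell together. Each is the 250 bases before the RefSeq start on GRCm38.p6, read 5′ to 3′ on the gene's strand. That is the minus strand for all 3. Capitals mark CCAAT or its complement ATTGG, and GGGCGG or its complement CCGCCC. Acly is at chr11:100528001-100528250, Fasn at chr11:120824548-120824797 and Thrsp at chr7:97417551-97417800. The Fasn window precedes a start inside the span of the gene (chr11:120805958-120825166), while those of Acly and Thrsp lie just outside their genes.
Acly: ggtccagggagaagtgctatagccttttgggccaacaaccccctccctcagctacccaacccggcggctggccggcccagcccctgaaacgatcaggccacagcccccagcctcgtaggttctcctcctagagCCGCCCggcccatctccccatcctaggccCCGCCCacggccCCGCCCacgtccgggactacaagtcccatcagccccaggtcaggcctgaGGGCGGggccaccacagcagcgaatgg
Fasn: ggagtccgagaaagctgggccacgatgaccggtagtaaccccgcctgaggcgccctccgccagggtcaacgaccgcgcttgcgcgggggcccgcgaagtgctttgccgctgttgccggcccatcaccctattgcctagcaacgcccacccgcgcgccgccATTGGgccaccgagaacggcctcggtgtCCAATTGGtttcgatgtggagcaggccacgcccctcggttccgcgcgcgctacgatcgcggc
Thrsp: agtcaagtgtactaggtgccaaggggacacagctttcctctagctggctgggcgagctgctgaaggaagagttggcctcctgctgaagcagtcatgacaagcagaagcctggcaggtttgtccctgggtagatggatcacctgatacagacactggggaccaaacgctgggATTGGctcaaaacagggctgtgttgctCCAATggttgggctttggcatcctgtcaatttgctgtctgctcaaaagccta

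Fasn held 3 CCAAT boxes in this window, 2 of them overlapping, and Thrsp held 2, while Acly held 4 GC boxes (GGGCGG) and no CCAAT box. Of the genes of the route not shown, Acaca held neither box. Me1 held 3 GC boxes before 1 start site and 1 CCAAT box before another. Over both strands, 33.8% of 32851 mouse promoter windows of the same length held CCAAT, 32.7% held GGGCGG and 6.02% held CACGTG. Of the 9 features that fell, 8 had a promoter in the RefSeq table, with 9 start sites between them, of which 5 held CCAAT, 2 held GGGCGG and 0 held CACGTG. A match in these letters is a description of the sequence alone.

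The 4 other features that fell have separate roles. Gbe1, the branching enzyme of glycogen synthesis, was at 58.9, 60.5 and 70.6 CPM on HFD, against 160, 178 and 164 CPM on LFD. Its libraries were close to each other within each diet, and it had the smallest fold change of the 9 (-1.40 ± 0.20, edgeR adjusted p = 0.0211). Rdh12, a retinol dehydrogenase, had 3, 3 and 4 counts on HFD, against 24, 73 and 46 counts on LFD. That is 1.37, 1.54 and 1.81 CPM on HFD and 12.3, 28.3 and 21.1 CPM on LFD (-3.66 ± 0.54, adjusted p = 0.0211), and on HFD these were the lowest levels among the 11. Enpep, aminopeptidase A, which cleaves angiotensin II, was at 19.6, 11.3 and 24.9 CPM on HFD and at 58.6, 80.9 and 110 CPM on LFD (-2.15 ± 0.34, adjusted p = 0.0303). Uhrf1bp1 was at 23.7, 32.8 and 32.6 CPM on HFD and at 114, 80.1 and 126 CPM on LFD (-1.84 ± 0.26, adjusted p = 0.0211). None of the 4 overlapped between diets.

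Peg3, an imprinted zinc finger gene expressed from the paternal allele, was at 132, 144 and 81.5 CPM on HFD, against 36.0, 30.2 and 20.6 CPM on LFD. It rose 4.12-fold (2.04 ± 0.29, adjusted p = 0.0211), all HFD libraries lay above all LFD libraries, and its antisense partner Peg3os overlaps it (chr7:6703892-6730462), and the genes cannot be told apart where strand was not used. Slc5a7, the choline transporter known from cholinergic neurons, was at 84.4, 133 and 56.1 CPM on HFD, against 6.17, 14.3 and 16.0 CPM on LFD. It rose 7.38-fold (2.88 ± 0.40, adjusted p = 0.0211) without overlap between diets. The 3 features with the next smallest p in this direction did not pass. Lrg1, a secreted glycoprotein, was at 47.5, 63.6 and 67.9 CPM on HFD and at 11.8, 9.68 and 22.4 CPM on LFD (2.03 ± 0.35, adjusted p = 0.0594). Adcy5, an adenylate cyclase, differed by 1.27 ± 0.22 (adjusted p = 0.0657), and the predicted gene Gm23935 by 1.63 ± 0.30 (adjusted p = 0.0786).

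Other lipid and adipocyte lists held no feature that passed. Of 18 cholesterol genes tested, 6 did not overlap between diets, all lower on HFD (6.52% of all features), and the list median was -0.41. Cyp51, the lanosterol demethylase of cholesterol synthesis, was at 22.4, 21.0 and 20.4 CPM on HFD and at 35.5, 66.2 and 46.7 CPM on LFD (-1.22 ± 0.30, adjusted p = 0.228). Of 17 triglyceride and lipid droplet genes, 4 were lower and 1 higher without overlap (6.52% and 6.09% of all features), with a median of -0.32. The higher one was Gk, glycerol kinase, at 89.9, 48.7 and 102 CPM on HFD and at 31.4, 25.9 and 39.9 CPM on LFD (1.31 ± 0.31, adjusted p = 0.199).

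The mature adipocyte list was close to level, with a median of -0.11 over its 20 tested genes, 3 lower and 1 higher without overlap (6.52% and 6.09% of all features). Slc2a4, the insulin-responsive glucose transporter GLUT4, had the smallest p of the list, with 115, 77.5 and 94.6 CPM on HFD and 174, 186 and 241 CPM on LFD (-1.06 ± 0.23, adjusted p = 0.145). Lep, the gene of leptin, also chosen after its values were seen, was at 1330, 1843 and 974 CPM on HFD and at 1277, 1650 and 996 CPM on LFD, and its diets overlapped (0.08 ± 0.31, adjusted p = 0.987). The insulin and glucose list had a median of -0.14 over 18 genes, 4 lower and 1 higher without overlap. Of the 15 steroid response genes tested, none passed and the median was 0.08, with 2 lower and 1 higher without overlap. Both lists stand against the same shares of all features. Hsd11b1 of this list, which regenerates active glucocorticoid, did not pass, with 35.6, 21.5 and 26.3 CPM on HFD and 101, 75.1 and 185 CPM on LFD (-2.11 ± 0.34, adjusted p = 0.0547).

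Of 13 genes known to mark fat growth on a high-fat diet, none passed and the median was 0.13. Sfrp5, a secreted Wnt antagonist, was at 118, 103 and 89.2 CPM on HFD and at 39.6, 69.7 and 21.5 CPM on LFD (1.24 ± 0.36, adjusted p = 0.433). Of 17 circadian clock genes none passed, 4 were lower without overlap (6.52% of all features) and the median was -0.37. Nr1d1, the repressor REV-ERB alpha, was at 81.7, 75.4 and 94.6 CPM on HFD and at 103, 186 and 150 CPM on LFD (-0.80 ± 0.24, adjusted p = 0.442), and it overlaps Thra on the other strand. Fatty acid oxidation genes had a median of 0.32 over 17 genes, with 1 higher and 0 lower without overlap (6.09% and 6.52% of all features). The 9 thermogenic genes tested had a median of -0.44, with 8 negative and 1 positive. They showed no diet that stood clear of the other, with 0 of 9 free of overlap.

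**Figure D4:**
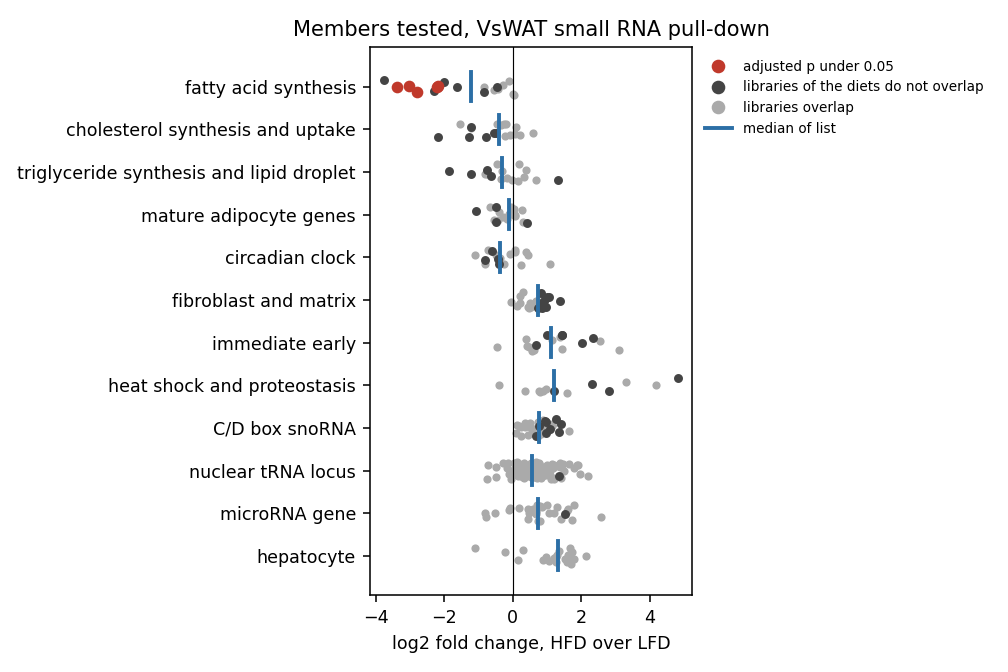
Log2 fold change (HFD over LFD) of every tested member of 12 gene lists. Red points passed the test, dark points have no overlap between the diets' libraries, grey points overlap, and blue bars are list medians; red points occur in the fatty acid synthesis list alone among these 12.

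Fibroblast and matrix genes lay above 0 as a group, with no member past the test. All 23 were tested, 22 had a positive fold change, the median was 0.75, and 11 were higher and 0 lower without overlap (6.09% and 6.52% of all features). Col6a3, a chain of collagen VI, was at 148, 149 and 172 CPM on HFD and at 86.9, 73.9 and 66.0 CPM on LFD (1.05 ± 0.21, adjusted p = 0.105). The 4 fibroblast markers summed to 1055 to 1511 CPM of all assigned counts on HFD and to 621 to 975 CPM on LFD, and their part in these values was not tested. Among these markers, Dcn and Col1a1 overlapped between diets, while Col3a1 and Pdgfra did not. Of 14 endothelial genes, 3 were higher without overlap (6.09% of all features) and the median was 0.39. Ptprb, a phosphatase of endothelial cells, was at 107, 110 and 130 CPM on HFD and at 76.6, 67.0 and 73.3 CPM on LFD (0.68 ± 0.20, adjusted p = 0.433). Macrophage and leukocyte genes had a median of 0.10 over 20 genes, and the 6 markers of these cells summed to 354 to 407 CPM on HFD and to 215 to 439 CPM on LFD.

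Immediate early genes, which respond to stimuli within minutes to hours, also lay above 0, with a median of 1.13 over 17 tested, and 6 were higher and 0 lower without overlap (6.09% and 6.52% of all features). Socs3, a feedback inhibitor of cytokine signalling, was at 40.2, 10.8 and 42.1 CPM on HFD and at 10.3, 5.81 and 6.87 CPM on LFD (2.03 ± 0.51, adjusted p = 0.244). Heat shock genes had a median of 1.21 over 13, with 4 higher without overlap (6.09% of all features). Hspb1, a small heat shock protein, was at 7.76, 18.5 and 64.3 CPM on HFD and at 5.14, 7.35 and 5.50 CPM on LFD (2.31 ± 0.70, adjusted p = 0.495). HFD 3 was the highest library in Hspb1 and in Hspa1b. Hmox1, heme oxygenase, was at 57.1, 71.8 and 213 CPM on HFD and at 23.6, 25.9 and 21.5 CPM on LFD, again with HFD 3 highest (2.26 ± 0.50, adjusted p = 0.245).

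No class of small RNA held a feature that passed. C/D box snoRNAs, which guide methylation of ribosomal RNA, had positive fold changes in 39 of 39 tested, a median of 0.76, and 9 higher without overlap (6.09% of all features). Snord43 was at 77.1, 42.6 and 40.7 CPM on HFD and at 26.7, 23.6 and 10.1 CPM on LFD (1.41 ± 0.39, adjusted p = 0.342). It lies within Rpl3, so that reads of its host gene cannot be told apart. Nuclear tRNA loci had a median of 0.57 over 128 loci, with 1 higher and 0 lower without overlap (6.09% and 6.52% of all features). Mitochondrial tRNAs had a median of 0.77 over 12, with 0 free of overlap. HFD 1 was the highest library in mt-Ti, the mitochondrial isoleucine tRNA, with 9170, 3125 and 4504 CPM on HFD and 3540, 2735 and 1557 CPM on LFD (1.10 ± 0.43, adjusted p = 0.643).

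Of 1180 microRNA genes in the files, 251 had a count in a pull-down library and 30 were tested. Their median was 0.73, and 1 was higher and 0 lower without overlap (6.09% and 6.52% of all features). Mir1949 was at 42.9, 12.3 and 9.05 CPM on HFD and at 8.22, 8.13 and 5.95 CPM on LFD (1.52 ± 0.57, adjusted p = 0.612). Mir150, known from lymphocytes, was at 48.4, 19.0 and 3.62 CPM on HFD and at 6.17, 5.81 and 8.70 CPM on LFD, so that HFD 1 was highest and HFD 3 lowest of all (1.77 ± 0.75, adjusted p = 0.703). Mir322 had the same order on HFD, 37.9, 11.3 and 1.81 CPM, against 4.63, 6.97 and 5.04 CPM on LFD (1.60 ± 0.84, adjusted p = 0.804). Mir145a differed by 1.21 ± 0.72 (adjusted p = 0.842). Without HFD 1, HFD 2 and LFD 1, the libraries rich in Alb, Mir150, Mir322 and Mir145a had negative values of -1.0044, -1.71 and -0.34. Mir6236 was by far the most abundant of the 5, at 2788, 2510 and 5422 CPM on HFD and at 1455, 2244 and 2829 CPM on LFD (0.72 ± 0.37, adjusted p = 0.776). The counts are per gene and do not separate the arms of a precursor. The mature forms that RefSeq gives on GRCm38.p6 for 3 of these genes are shown to identify them, in RNA letters with the seed (bases 2 to 8) in capitals, and no 2 of them share a seed.
mmu-miR-150-3p: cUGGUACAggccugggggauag
mmu-miR-322-5p: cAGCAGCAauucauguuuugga
mmu-miR-322-3p: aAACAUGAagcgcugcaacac
mmu-miR-6236: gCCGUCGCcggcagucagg

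Shares of assigned counts overlapped between diets in each of 8 RNA classes. MicroRNA genes took 0.432%, 0.318% and 0.595% on HFD and 0.195%, 0.324% and 0.276% on LFD, or 0.448% ± 0.139 and 0.265% ± 0.0653 (SD, n = 3 each, exact 2-sided permutation p = 0.2). Mir6236 alone had 6107, 4894 and 11978 counts on HFD and 2831, 5797 and 6177 on LFD. That is most of this class in every library, so the share largely describes 1 feature. C/D box snoRNAs took 0.278% ± 0.0955 on HFD and 0.185% ± 0.0465 on LFD (exact permutation p = 0.2). Mitochondrial mRNAs took 12.9% ± 3.51 on HFD and 16.6% ± 3.52 on LFD (exact permutation p = 0.3), and nuclear tRNA loci 0.725% ± 0.555 and 0.522% ± 0.228 (p = 0.6 by the same exact test). Adjusted over the 8 classes, each p was 0.7, and 3 libraries against 3 cannot give less than 0.1.

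The input libraries, which hold the tissue's small RNA before capture, showed the same route. Of 7987 features tested there, 17 passed (0.213%), 7 higher (0.0876%) and 10 lower (0.125%), and 750 had an unadjusted p under 0.05 (9.39%). Acly, Acaca, Fasn, Thrsp and Gbe1 passed in both fractions and in the same direction. These 5 are 45.5% of the pull-down calls and 29.4% of the input calls. All 9 pull-down calls that could be tested in input had the same sign there, and 15 of the 17 input calls had the same sign in pull-down. Over all 7755 features tested in both, the fold changes correlated weakly (Pearson 0.294, Spearman 0.203). Same-numbered input and pull-down libraries were high or low in Alb together, and 5 of the 6 pairs deviated together from their group means (correlations 0.189 to 0.383, HFD 1 at 0.0443), so the fractions may not be independent and their likeness is not a replication. Inputs HFD 1 and HFD 2 differed from each other little beyond sampling noise (chi-square per degree of freedom 1.53, against 8.03 to 9.43 for the other input pairs), and with their counts summed as 1 library 6 features passed in input. The 17 became 5 without HFD 1, 8 without HFD 2, 68 without LFD 1, 62 without LFD 2 and 87 without HFD 1, HFD 2 and LFD 1.

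Fatty acid synthesis genes had a median of -1.74 over 18 in input, with 14 lower and 0 higher without overlap, against 7.67% of all input features lower and 7.32% higher without overlap. Acly was at 78.9, 79.4 and 81.2 CPM in HFD inputs and at 490, 1012 and 1364 CPM in LFD inputs (-3.58 ± 0.34, edgeR adjusted p = 0.000734). Slc2a4 fell in input (-1.26 ± 0.22, adjusted p = 0.033), and Lrg1 rose there, with 94.5, 147 and 131 CPM on HFD and 23.8, 25.6 and 33.2 CPM on LFD (2.18 ± 0.21, adjusted p = 0.000262). Sfrp5 also rose in input (1.35 ± 0.22, edgeR adjusted p = 0.016). Of the 13 fat growth genes, 4 were higher and 0 lower without overlap there (7.32% and 7.67% of all input features). Fibroblast and matrix genes had a median of 0.32 in input, and C/D box snoRNAs and nuclear tRNA loci had negative medians there, -0.13 and -0.36. The input medians of microRNA genes (-0.36 over 44) and mitochondrial tRNAs (-0.58 over 12) were negative as well, opposite to those in pull-down.

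**Figure D5:**
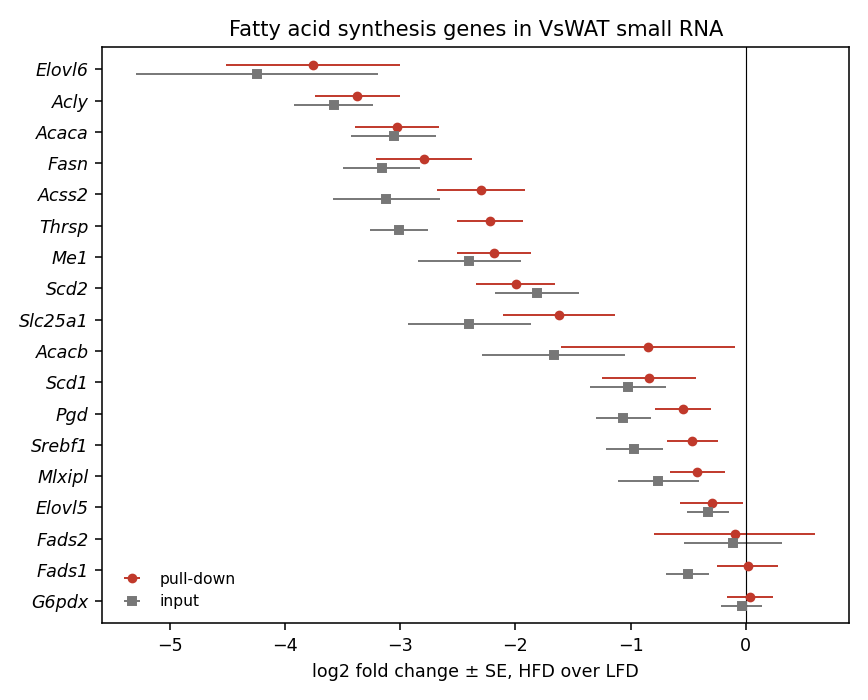
Log2 fold change ± SE (HFD over LFD) of the 18 tested fatty acid synthesis genes in pull-down (red circles) and input (grey squares) of VsWAT small RNA, ordered by the pull-down value. Both fractions lie below 0 for nearly all genes, and Acly, Acaca and Fasn are near -3 in both.

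The diet difference of pull-down was next compared with that of input in 1 model. Of 11339 features tested, 0 passed by edgeR, 458 had an unadjusted p under 0.05 (4.04%), and DESeq2 called 2. For Acly the difference between fractions was 0.21 (95% interval -0.91 to 1.32), for Acaca 0.03 (-1.18 to 1.23), for Fasn 0.37 (-0.79 to 1.53) and for Thrsp 0.79 (-0.01 to 1.59). These intervals leave room for a difference of more than 2-fold in either direction for Acaca, and they do not show that the fractions act alike. The 2 features with the smallest p were Gm24265 and Sulf1. Gm24265, annotated as a small nuclear RNA within Sirt4, was at 127, 68.7 and 116 CPM in HFD pull-downs and at 47.8, 47.2 and 30.7 CPM in LFD pull-downs, but at 235, 251 and 178 CPM in HFD inputs and at 365, 318 and 548 CPM in LFD inputs. The directions were opposite without overlap in either fraction, and the difference of 2.20 ± 0.38 did not pass (adjusted p = 0.254). Sulf1, a heparan sulfate sulfatase, differed by 1.64 ± 0.39 (adjusted p = 0.9999).

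Levels in input were scaled in their own fit, and those in GAS and liver each in a joint fit with the VsWAT pull-downs. The VsWAT pull-down levels printed are from the fit of those 6 libraries alone. All are set side by side to show direction within a tissue, not to compare height between tissues. Against GAS pull-down, whose muscle markers (Acta1, Ckm, Myh4 and Tnnt3) summed to 24910 to 28710 CPM of all assigned counts on HFD and 15520 to 22370 CPM on LFD, the diet difference itself differed for 35 of 11812 features (0.296%). Of these, 33 were higher in VsWAT (0.279%) and 2 lower (0.0169%), and 1087 had an unadjusted p under 0.05 (9.2%). The count became 21 without VsWAT HFD 1, 21 without VsWAT LFD 3, 23 without GAS LFD 3, 9 without GAS HFD 2, 3 without GAS HFD 3 and 21 without the VsWAT libraries rich in Alb. Me1 was one of the 2 lower ones: it was at 54.6, 65.7 and 70.0 CPM in HFD and 74.8, 69.6 and 61.3 CPM in LFD pull-downs of GAS, where the diets overlapped, and the difference between tissues was -2.06 ± 0.40 (edgeR adjusted p = 0.0288). The other was Usp2, a deubiquitinase, at 5.48, 4.62 and 6.79 CPM on HFD and 16.5, 16.3 and 23.4 CPM on LFD in VsWAT, with a difference of -1.77 ± 0.36 (adjusted p = 0.0412).

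Among the features that passed, the largest differences in the other direction were those of Adam12, mt-Ti, Cyp4v3 and Arxes1. Arxes1, a gene of adipocyte differentiation, was level in VsWAT at 156, 116 and 106 CPM on HFD and 141, 114 and 132 CPM on LFD, and was at 1.02, 0 and 1.11 CPM on HFD and 14.1, 9.84 and 6.13 CPM on LFD in GAS (difference 3.63 ± 0.62, adjusted p = 0.0123). Of the 20 mature adipocyte genes, 6 passed as higher in this difference, against 0.279% of all features tested. In VsWAT pull-down alone this list had a median of -0.11, and 0 of its genes passed. In GAS pull-downs the 8 adipocyte markers summed to 835 to 1051 CPM of all assigned counts on HFD and to 2055 to 2487 CPM on LFD, and their part in these values was not tested. Fasn, at 31.6, 6.29 and 12.2 CPM on HFD and 293, 333 and 306 CPM on LFD in GAS pull-downs, did not differ between tissues past the test (1.39, 95% interval 0.06 to 2.71, adjusted p = 0.523).

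Against liver pull-down, 0 of 12587 features passed by edgeR, 622 had an unadjusted p under 0.05 (4.94%), and DESeq2 called 2. The smallest p was that of Scd1, at 720, 447 and 345 CPM on HFD and 9835 and 9376 CPM on LFD in liver pull-downs, with a difference between tissues of 3.43 ± 0.62 (adjusted p = 0.525). S1pr1, a receptor for sphingosine 1-phosphate, came next (1.96 ± 0.40, adjusted p = 0.61). Acly was at 49.2, 91.2 and 46.2 CPM on HFD and at 316 and 141 CPM on LFD in liver pull-downs, and its difference was -1.48 (95% interval -2.76 to -0.20, adjusted p = 0.9999). The VsWAT pull-down libraries enter all 3 of these differences, which are therefore not independent of each other.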

How the data were processed

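Small RNA libraries of tissue RNA before (input) and after pull-down were read as single ends. The authors deposited raw counts per feature for each library, made with STAR and HTSeq on mm10 per the submitters' processing notes; versions and use of strand are not given in the sources used here. Groups came from titles. Features passing filterByExpr (minimum count 10) were tested on the deposited counts with edgeR 4.0.16 (R 4.3.3, TMM scaling, robust quasi-likelihood test, limma 3.58.1), with Benjamini-Hochberg adjustment over all tested features and a threshold of 0.05; the 95% intervals and SE come from this fit. Differences of diet effects were interaction terms. Class shares had an exact permutation test.

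Named were called features with a mean of at least 20 counts and no overlap between diets, topped up to 5 in a direction by smallest p, the members of each described list with the smallest p, up to 5 microRNA genes by smallest p, the features with the largest called tissue differences, and Alb, Mir122 and Cyp3a genes; other names are said in the text to be chosen after their values were seen. Members, lists and this rule were chosen with earlier results of these data known. Alternatives were DESeq2 1.42.0, other scalings, no filter, a replicate block, shared dispersion, libraries left out, and a split at 300 CPM of Alb chosen after seeing the data. Scripts were tested on simulated data. For diet in pull-down, 8 of 100 features changed by 1 log2 unit and 77 of 100 changed by 2 were called, beside 13 false calls. For pull-down minus input, 2 of 100 and 45 of 100 were called, beside 1 false call. Most changes of 2-fold would thus be missed, and false calls can occur among those that pass. Promoters and mature microRNAs are from RefSeq tables of GRCm38.p6, the assembly of mm10.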

Additional observations from a re-analysis of the deposited data

Results flagged for a closer look

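Of the 35 features whose diet difference in VsWAT pull-down differed from that in GAS pull-down by the edgeR interaction test, 9 are among the genes named in the text. On the log2 scale the difference was 5.28 for Adam12, 3.85 for mt-Ti, 3.74 for Cyp4v3, 3.63 for Arxes1, 2.97 for Gk, 2.62 for Gm23935 and 2.55 for Gm24265, all higher in VsWAT, and -2.06 for Me1 and -1.77 for Usp2. Adam12, a metalloprotease, was at 77.1, 109 and 48.9 CPM on HFD and at 49.9, 60.0 and 47.6 CPM on LFD in VsWAT, and at 0.51, 0 and 0 CPM on HFD and 8.26, 7.22 and 3.07 CPM on LFD in GAS. The diets overlapped in VsWAT, and they were apart in GAS at low levels. Cyp4v3, a fatty acid hydroxylase, was at 86.7, 98.5 and 69.7 CPM on HFD and at 44.7, 31.0 and 32.1 CPM on LFD in VsWAT. Its GAS levels were low as well, at 2.04, 0 and 1.11 CPM on HFD and 8.26, 3.94 and 7.66 CPM on LFD. In GAS, mt-Ti was at 1091, 777 and 601 CPM on HFD and at 3046, 4678 and 8801 CPM on LFD.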

How the results depend on the processing

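With DESeq2, calls numbered 83 for diet in pull-down, 62 in input, 2 for pull-down minus input, 135 for VsWAT minus GAS and 2 for VsWAT minus liver. With no filter on low counts they numbered 151, 202, 27, 201 and 25 in the same order. Dispersion from all 12 VsWAT libraries gave 56 for pull-down, input HFD 1 and HFD 2 summed gave 6 for input, and total-count scaling gave 1 for VsWAT minus liver. Without the VsWAT libraries over 300 CPM of Alb (chosen after seeing the data) calls numbered 6 in pull-down, 87 in input, 21 against GAS and 5 against liver, and the 3 libraries over it alone gave 70 in pull-down. Leaving out 1 library gave 0 to 15 calls in pull-down, 5 to 68 in input, 0 to 1 against input (1 without input LFD 2), 3 to 39 against GAS and 0 to 6 against liver (6 without VsWAT HFD 3). The cause of these shifts was not tested.

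The replicate block gave 15 calls in pull-down, 21 in input, 0 against input, 38 against GAS and 0 against liver. Same-numbered HFD and LFD pull-downs correlated at 0.257, -0.112 and 0.18, so the numbers were not taken to pair libraries across diets. Between input and pull-down the same numbers gave 0.0443, 0.189 and 0.214 on HFD and 0.383, 0.318 and 0.307 on LFD. Within a diet each library correlated best with its own number in the other fraction, a hint from the data and not the design, except pull-down HFD 1, which was closest to input HFD 2 (0.0617), so these numbers were not taken as pairs either.

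Some values changed sign. With 1 library left out, Mir122 ranged over -0.40 (without HFD 1) to 1.87 (without LFD 1), and was -0.00839 without LFD 2. Mir145a ranged over -0.15 (without HFD 1) to 1.64 (without HFD 3), and Top2a, a cell cycle gene, over -1.21 (without LFD 3) to 0.47 (without LFD 2). Without the libraries over 300 CPM of Alb, Alb was -1.57, Mir122 -0.67, Mir322 -1.71, Mir150 -1.0044 and Mir145a -0.34, and in those 3 libraries alone Mir122 was -0.24. With the 10 most abundant features removed, mitochondrial rRNAs had no share by definition, because both features of this class, mt-Rnr1 and mt-Rnr2, are among these 10. Low counts limit Rdh12, the microRNA genes and most tRNA loci.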
